A study of Mus musculus with 16 samples.

Results

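Radiation alone was compared with sham treatment in mouse mammary tumors 7 days after treatment. The comparison takes the 3 tumors titled RT and the 3 titled Sham, 6 of the 16 libraries of the series, across all 16017 genes that passed a filter on low counts. Each library is 1 tumor. All 6 tumors were mammary tumor-derived transplants (family F, F2) with the genotype Trp53 null, grown in BALB/cJ females aged 8 to 10 weeks, and a tumor entered treatment at 65 to 100 mm3. RT tumors received a single focal dose of 10 Gy from a small-animal irradiator. Sham tumors received control immunoglobulin G at 25 mg/kg 3 times per week. The labels do not say whether RT mice also received immunoglobulin. They do not state that each tumor came from its own mouse either, so p-values measure a spread between tumors. That spread was pooled over all 15 tumors fitted, including the 9 context tumors described next. A single transplant family limits the comparison to that tumor line in one mouse strain. Another 9 tumors were used as context, 3 each given TGFbi+RT, TGFbi or TGFbi+RT+anti-PD-L1 (triple-treated). Agents were injected intraperitoneally from 24 hours before irradiation. TGFbi is the TGF beta inhibitor IPW-5371 at 20 mg/kg daily, and anti-PD-L1 was given at 10 mg/kg weekly. An internal reference library was left out.

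Ionizing radiation breaks DNA, and cells answer through repair, cell cycle arrest and death, in which the transcription factor p53 has a central part. Irradiated tumors can also show interferon signaling, immune infiltration, vascular damage and changes in oxygenation. Low oxygen stabilizes hypoxia-inducible factors (HIF), which raise transcription of glucose transport and glycolysis genes, of the vessel growth factor Vegfa and of the prolyl hydroxylases that in turn mark HIF for destruction. HIF binds DNA at a short core motif, ACGTG or GCGTG.

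Total counts were 14568091 to 15503134 in RT and 13302488 to 17184023 in Sham. Mitochondrial genes took 2.48% to 3.07% of counts in RT and 2.24% to 2.59% in Sham. The library names carry the code A2304 in all 3 RT tumors and A2301 in all 3 Sham tumors, so radiation and whatever the code stands for cannot be told apart in this comparison. Replicate 1 of both groups stood apart from the other 4 tumors. The first principal component of the 6 tumors held 57.4% of the variance, with scores of -61.9 for RT 1 and -50.3 for Sham 1 against 10.1 to 53.8 for the others. The second component held 18.8%, with scores of -7.00, -17.9 and -36.0 in RT and 24.9, 34.2 and 1.82 in Sham. Of the 9 other tumors, TGFbi+RT 3 and triple-treated 2 had by far the highest interferon levels, given below.

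No gene passed the threshold. With edgeR's quasi-likelihood test, 0 of 16017 genes (0%) had a Benjamini-Hochberg adjusted p under 0.05, and the smallest was 0.999. Unadjusted p under 0.05 was reached by 672 genes (4.2%), fewer than the 801 that chance gives. Of these, 287 (1.79%) were higher in RT and 385 (2.4%) were lower. The total of 672 became 404 without RT 3 and 1072 without Sham 1. limma-voom also called 0 genes, and DESeq2 called 1, Ffar4, lower in RT. All 3 RT tumors lay above all 3 Sham tumors for 924 genes (5.77%) and below them for 1006 genes (6.28%). The median log2 fold change over all genes was 0.01, with quartiles of -0.16 and 0.22. Values below are CPM, counts scaled to a common library total by the TMM method, and log2 fold changes are RT minus Sham ± standard error. Unless an adjusted p is given, none of the genes named below passed, and "higher" and "lower" describe measured values.

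Trp53 itself, named by the genotype label, measured 74.2, 77.1 and 79.6 CPM in the RT tumors, against 79.7, 85.8 and 86.0 CPM in the Sham tumors. All RT values lay below all Sham values, with a log2 fold change of -0.12 ± 0.19. Counts per gene do not show whether the transcript is intact, so they cannot check the deletion.

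Among genes lower in RT, 12 were chosen by smallest unadjusted p, given a symbol, a mean log2 CPM of at least 1 and no overlap between groups. They were led by Bhlhe40, a transcriptional repressor of the circadian clock that is also a known HIF target. It measured 146, 129 and 135 CPM in the RT tumors, against 309.8, 266 and 241 CPM in the Sham tumors. The 2 groups were far apart, with a log2 fold change of -0.995 ± 0.21 and an unadjusted edgeR p of 0.000456. Pfkp, the platelet form of the glycolytic enzyme phosphofructokinase, measured 56.3, 51.7 and 55.8 CPM in the RT tumors, against 101, 133 and 117 CPM in the Sham tumors (-1.10 ± 0.26). Slc2a1, the glucose transporter GLUT1, measured 73.8, 79.0 and 82.8 CPM in the RT tumors, against 269, 190.4 and 145 CPM in the Sham tumors (-1.36 ± 0.36). The RT values of both genes were tightly grouped, and each Sham value was above all of them.

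Igfbp2, a secreted binding protein of insulin-like growth factors, showed the largest difference among these 12 genes. It measured 53.6, 93.0 and 58.7 CPM in the RT tumors, against 239, 279 and 345 CPM in the Sham tumors, a log2 fold change of -2.07 ± 0.52. Mb, the oxygen-binding protein myoglobin, measured 1.31, 3.53 and 1.97 CPM in the RT tumors, against 13.3, 3.85 and 9.21 CPM in the Sham tumors (-1.95 ± 0.51), and here the highest RT tumor came close to the lowest Sham tumor. Gas1, a membrane-anchored co-receptor of Hedgehog signaling, measured 56.8, 33.9 and 21.7 CPM in the RT tumors, against 141, 81.4 and 76.1 CPM in the Sham tumors (-1.41 ± 0.35). Cers4, a ceramide synthase, measured 10.1, 8.08 and 4.00 CPM in the RT tumors, against 15.4, 30.5 and 27.7 CPM in the Sham tumors (-1.73 ± 0.46). The other 5 genes of this group were Btbd3 (-1.03), the small Maf transcription factor Maff (-0.72), the sulfurtransferase Mpst (-0.81), Rps20 (-0.65), a ribosomal protein, and Tpt1 (-0.58), a translationally controlled growth protein. Rps20 and Tpt1 have many processed pseudogenes, and how reads that fit several places were counted is not given in the sources used here, so their counts are uncertain.

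Among the 12 genes chosen in the other direction was Cyp1b1, a cytochrome P450 induced through the aryl hydrocarbon receptor. It measured 220.2, 105 and 192 CPM in the RT tumors, against 59.0, 45.1 and 45.8 CPM in the Sham tumors, a log2 fold change of 1.79 ± 0.52. Cbx5, which encodes the heterochromatin protein HP1 alpha, measured 303, 393 and 445 CPM in the RT tumors, against 221, 200.0 and 237 CPM in the Sham tumors (0.79 ± 0.21). Btla, an inhibitory receptor of lymphocytes, was low throughout and measured 2.12, 2.04 and 5.48 CPM in the RT tumors, against 0.656, 0.655 and 0.778 CPM in the Sham tumors (2.19 ± 0.55). Bcl2l14, a member of the Bcl-2 family, measured 7.73, 11.1 and 10.9 CPM in the RT tumors, against 3.64, 1.06 and 2.59 CPM in the Sham tumors (2.01 ± 0.57). RT and Sham values did not overlap for any of these, as the selection required.

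Gjb1, the gap junction protein connexin 32, measured 2.99, 4.75 and 5.27 CPM in the RT tumors, against 1.49, 0.737 and 0.778 CPM in the Sham tumors (2.09 ± 0.60). Ndp, the secreted Frizzled ligand Norrin, measured 2.81, 4.95 and 4.64 CPM in the RT tumors, against 1.79, 2.05 and 2.01 CPM in the Sham tumors (1.08 ± 0.27). The other 6 were Nhs (1.84), the haem synthesis enzyme Uros (0.58), the RNA-binding protein gene Nufip2 (0.38), the sterol reductase Tm7sf2 (1.07), BC006965 (0.71) and the acetyltransferase-like gene Nat8f2 (1.17). Below the level required of these genes, Ffar4, a receptor for long-chain fatty acids, had the smallest unadjusted p of all. It measured 0.312, 0.136 and 0.211 CPM in the RT tumors, against 4.59, 2.95 and 3.37 CPM in the Sham tumors, from 10 counts in all RT tumors and 165 in all Sham tumors. Its log2 fold change was -3.99 ± 0.83 with an edgeR adjusted p of 0.999, and DESeq2 gave -4.05 with an adjusted p of 0.0339. Cldn11, a claudin of tight junctions named here after its values were seen, measured 2.62, 2.44 and 2.46 CPM in the RT tumors, against 0.537, 0.0819 and 0.454 CPM in the Sham tumors (2.74 ± 0.58).

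**Figure D1:**
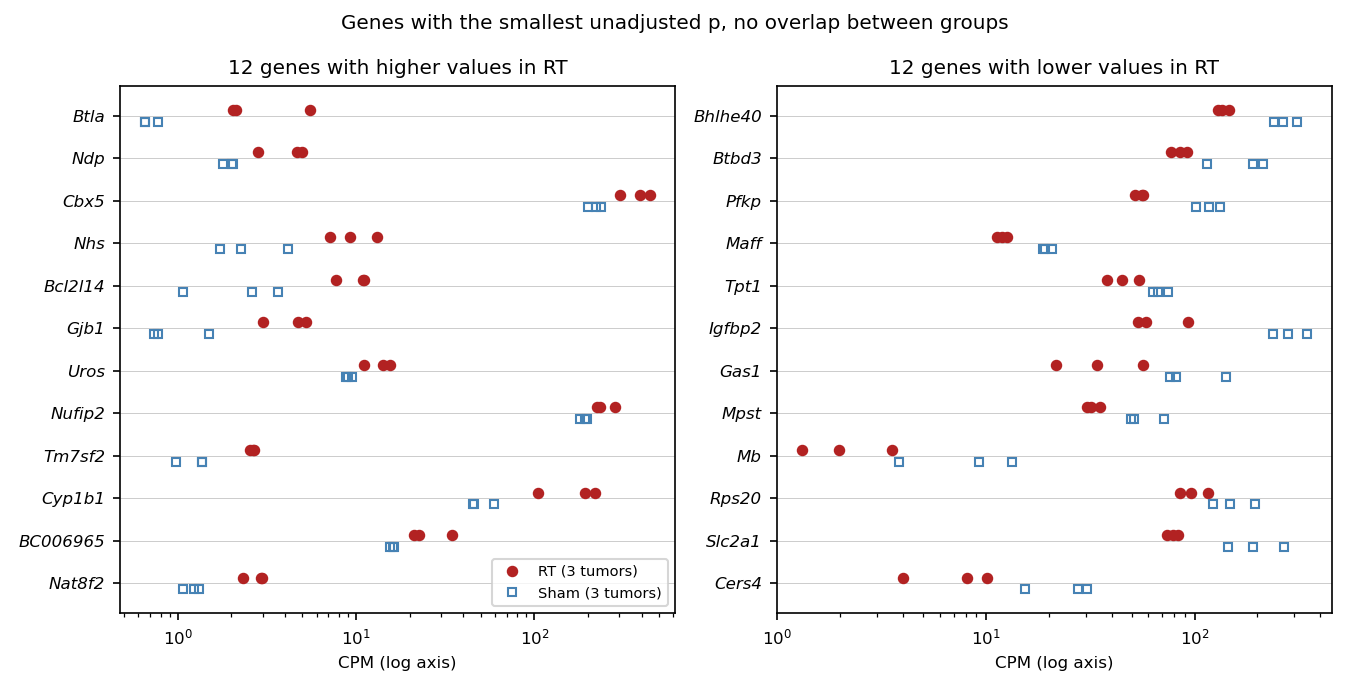
CPM on a log axis in each of the 3 RT tumors (filled circles) and the 3 Sham tumors (open squares), for 12 genes in each direction. They have the smallest unadjusted p among genes with a symbol, a mean log2 CPM of at least 1 and groups that do not overlap. The separation within each gene is part of how the genes were chosen. Bhlhe40, Pfkp and Slc2a1 have narrow RT ranges below all Sham tumors.

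Genes of the response to low oxygen and of glycolysis were lower in RT across most of the list. Of 40 listed genes 39 were tested and 36 had a lower fitted level in RT. The median log2 fold change was -0.71, beside 0.01 over all genes. Summed over the list, levels were 3819 to 4675 CPM in RT and 6641 to 7898 CPM in Sham. All 3 RT tumors lay below all 3 Sham tumors for 28 of the 39 (71.8%), beside 6.28% of all genes, and above them for 0. The list and its members were chosen with the lower hypoxia genes of these data known, so these shares are not independent support. An unadjusted p under 0.05 with a lower value was reached by 22 members, beside 2.4% of all genes, and 0 passed after adjustment. The 22 became 10 without RT 1, 9 without RT 2, 9 without Sham 1 and 14 without Sham 3. They became 7 without replicate 1 of both groups and 13 with the library code as a term in the fit. With DESeq2 there were 26, without TGFbi+RT 3 and triple-treated 2 there were 28, and with only RT and Sham in the fit 30. The remaining settings gave 16 to 24. The median stayed between -0.83 and -0.64 over the other settings tried and was -1.12 with the library code as a term. That term is estimated only from the 3 triple-treated tumors.

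Egln3 and Egln1 encode prolyl hydroxylases that act on HIF, and both are HIF targets. Egln3 measured 55.5, 40.5 and 68.9 CPM in the RT tumors, against 198, 163 and 180.1 CPM in the Sham tumors (-1.71 ± 0.52), so that even the lowest Sham tumor was far above the highest RT tumor. Egln1 measured 50.5, 42.8 and 49.5 CPM in the RT tumors, against 77.0, 53.7 and 63.2 CPM in the Sham tumors (-0.44 ± 0.19), a narrower gap. Of the glycolytic enzymes, Gpi1 measured 263, 273 and 293 CPM in the RT tumors, against 424, 388 and 412 CPM in the Sham tumors (-0.56 ± 0.22), Aldoa had a log2 fold change of -0.65 ± 0.24, Eno1 of -0.67 ± 0.27 and Ldha of -0.62 ± 0.27. Their groups did not overlap either. Tpi1 (-0.70 ± 0.35), Pgk1 (-0.71 ± 0.36), Hk2 (-0.85 ± 0.39) and Pfkl (-0.72 ± 0.33) showed similar differences with no overlap. Pfkfb3, which makes the activator of phosphofructokinase, measured 82.3, 67.1 and 89.0 CPM in the RT tumors, against 157, 108 and 125 CPM in the Sham tumors (-0.71 ± 0.25). Pdk1, a kinase that inhibits mitochondrial pyruvate dehydrogenase, had a log2 fold change of -0.70 ± 0.33. Gapdh measured 43.8, 62.8 and 47.0 CPM in the RT tumors, against 58.9, 101 and 100.0 CPM in the Sham tumors, with the lowest Sham tumor inside the RT range, and its many pseudogenes make its counts uncertain.

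Members outside glycolysis showed the largest differences. Ndrg1, a stress-induced gene that is strongly raised by low oxygen, measured 114, 57.3 and 76.1 CPM in the RT tumors, against 469, 243 and 335 CPM in the Sham tumors (-2.08 ± 0.67). Vegfa, the main growth factor of blood vessels, measured 125, 101 and 170.2 CPM in the RT tumors, against 588, 392 and 489 CPM in the Sham tumors (-1.89 ± 0.66). For both genes the lowest Sham tumor was above the highest RT tumor by a wide margin. Ankrd37 measured 2.49, 2.44 and 2.25 CPM in the RT tumors, against 10.5, 5.08 and 7.59 CPM in the Sham tumors (-1.69 ± 0.53). Ddit4, an inhibitor of mTORC1 signaling, measured 79.8, 94.3 and 95.8 CPM in the RT tumors, against 195, 134 and 198 CPM in the Sham tumors (-0.97 ± 0.29). Bnip3, a mitophagy receptor, measured 31.1, 22.3 and 28.7 CPM in the RT tumors, against 94.5, 57.6 and 65.0 CPM in the Sham tumors (-1.40 ± 0.56). Car9, the pH-regulating carbonic anhydrase IX, was low and measured 2.37, 1.09 and 1.12 CPM in the RT tumors, against 8.29, 2.70 and 2.40 CPM in the Sham tumors (-1.54 ± 0.53). For Car9 the highest RT tumor was almost level with the lowest Sham tumor. Groups overlapped for 11 members, of which Adm (-1.80) and Stc2 (-0.98) were the lowest and Angptl4 (0.30), Loxl2 (0.12) and Pfkfb4 (0.01) lay above 0.

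**Figure D2:**
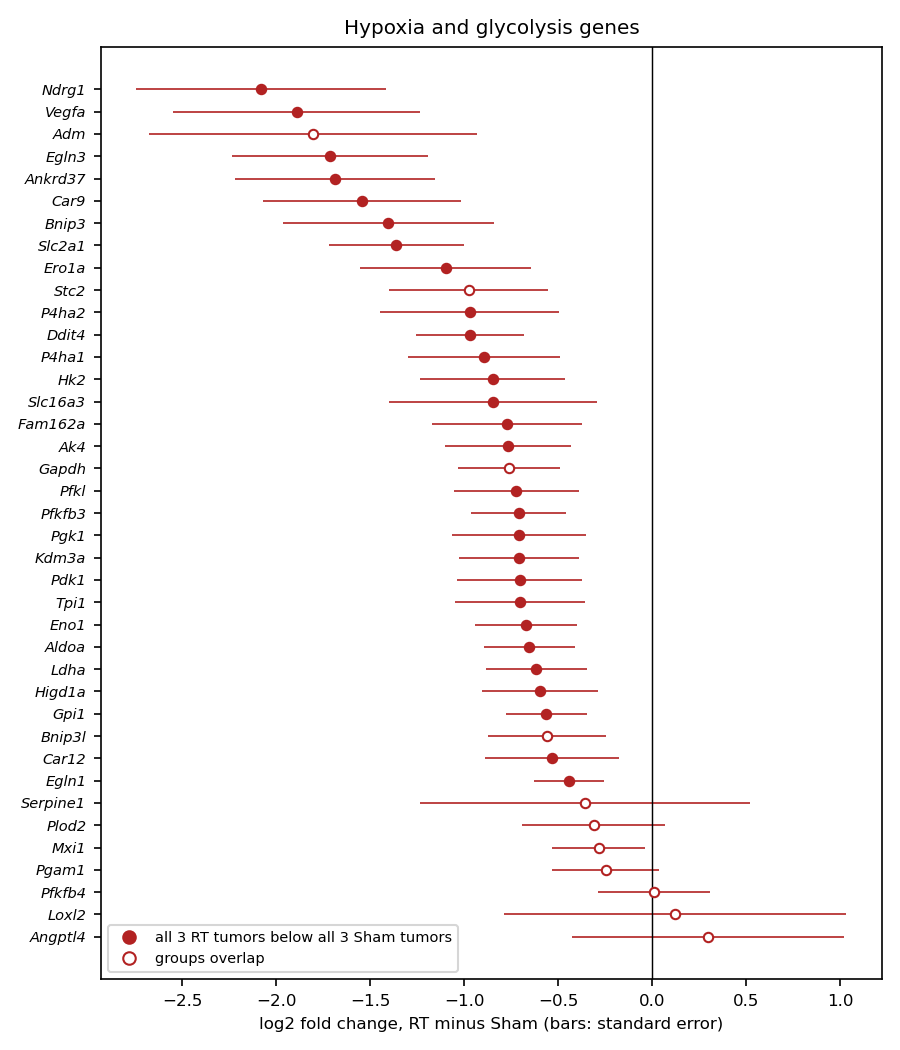
Log2 fold change (RT minus Sham) with its standard error for the 39 tested hypoxia and glycolysis genes, sorted. Filled points mark the 28 genes whose 3 RT values all lie below the 3 Sham values, and open points mark the 11 whose groups overlap.

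The promoters of 3 genes whose RT values all lay below Sham, Slc2a1 and Egln3 of the list and Pfkp outside it, are shown because the core letters bound by HIF are found in them. They were chosen after these matches were seen. Each is the 250 bases before the gene's start in RefSeq on GRCm38.p6, written 5′ to 3′ along the gene's own strand, and capitals mark ACGTG or GCGTG on either strand (CACGT or CACGC where the match is on the other strand). The Slc2a1 window is chr4:119108495-119108744 on the plus strand, Egln3 is chr12:54203875-54204124 on the minus strand and Pfkp is chr13:6648772-6649021 on the minus strand.
Slc2a1: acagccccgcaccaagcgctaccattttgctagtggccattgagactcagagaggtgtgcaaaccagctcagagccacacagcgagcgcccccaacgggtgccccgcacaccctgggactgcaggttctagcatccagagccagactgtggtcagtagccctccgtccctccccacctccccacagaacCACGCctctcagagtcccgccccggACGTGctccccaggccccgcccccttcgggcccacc
Egln3: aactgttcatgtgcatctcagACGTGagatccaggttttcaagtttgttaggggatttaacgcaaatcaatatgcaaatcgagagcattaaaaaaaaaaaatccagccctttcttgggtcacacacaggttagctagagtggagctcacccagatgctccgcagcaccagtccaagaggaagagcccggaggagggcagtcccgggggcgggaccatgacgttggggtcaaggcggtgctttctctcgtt
Pfkp: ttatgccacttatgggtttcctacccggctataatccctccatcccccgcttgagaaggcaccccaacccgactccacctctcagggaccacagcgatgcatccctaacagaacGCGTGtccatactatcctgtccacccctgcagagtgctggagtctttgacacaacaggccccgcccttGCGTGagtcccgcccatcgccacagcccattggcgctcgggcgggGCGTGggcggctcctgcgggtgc
The Slc2a1 window held 2 matches, 36 to 32 and 61 to 57 bases before the start. The Egln3 window held 1, at 229 to 225 bases, and the Pfkp window held 3, at 136 to 132, 68 to 64 and 23 to 19 bases. A match was present in 30 of the 33 tested list members with a window (90.9%), and in 24 of the 27 with no overlap between groups (88.9%). Over all tested genes with a window it was 6986 of 11957 (58.4%). The motif contains a CG pair, and the median number of CG pairs per window was 21 in the list and 16 over all genes. A match is a description of the letters and not a bound site. Ndrg1 and Bhlhe40 had no entry in the promoter table.

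The HIF subunits and oxygen sensors themselves were mixed, with a median of -0.20 over 10 genes. Hif1a, the oxygen-regulated subunit, measured 204, 144 and 174 CPM in the RT tumors, against 261, 147 and 146 CPM in the Sham tumors (-0.08 ± 0.26), and the groups overlapped. Its transcript does not report on the protein, which is regulated mainly by degradation. Epas1, which encodes HIF-2 alpha and is abundant in endothelium, measured 178, 62.8 and 43.5 CPM in the RT tumors, against 129, 40.2 and 49.6 CPM in the Sham tumors (0.38 ± 0.69), with replicate 1 highest in both groups. Arnt, the constant partner subunit, measured 79.6, 79.0 and 89.8 CPM in the RT tumors, against 117, 105 and 103 CPM in the Sham tumors (-0.39 ± 0.12). Vhl, which targets HIF for destruction, measured 22.3, 20.8 and 22.1 CPM in the RT tumors, against 27.1, 27.2 and 26.4 CPM in the Sham tumors (-0.31 ± 0.17). Both were lower in RT without overlap, while Hif3a, at under 1 CPM in every tumor, was higher without overlap (1.89 ± 0.70). Of the 10 genes 4 were lower (40%, beside 6.28% of all genes) and 1 was higher (10%, beside 5.77%) without overlap, the lower ones including Egln1 and Egln3, which also count in the hypoxia list.

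Other vessel genes overlapped between the groups. Of 18 angiogenesis ligands and receptors, 1 (5.56%, beside 6.28% of all genes) was lower without overlap, Vegfa itself, and the median log2 fold change was -0.16. Pgf, a placental relative of Vegfa, measured 19.8, 13.8 and 22.7 CPM in the RT tumors, against 56.1, 18.5 and 34.0 CPM in the Sham tumors (-0.95 ± 0.36). Angpt2, a destabilizer of vessels, measured 27.3, 14.3 and 10.4 CPM in the RT tumors, against 65.7, 21.3 and 23.6 CPM in the Sham tumors (-1.09 ± 0.50). Kdr, the main Vegfa receptor of endothelium, measured 74.6, 37.4 and 28.0 CPM in the RT tumors, against 52.0, 20.4 and 20.0 CPM in the Sham tumors (0.60 ± 0.40), and Aplnr, the apelin receptor, measured 39.9, 14.3 and 5.62 CPM in the RT tumors, against 6.26, 3.27 and 2.53 CPM in the Sham tumors (2.30 ± 0.70). Groups overlapped in all of these, and replicate 1 was the highest of its group in each except Pgf in RT. The 18 endothelial markers had a median of -0.04, 0 without overlap in either direction, and summed levels of 309 to 1089.9 CPM in RT and 289 to 1090.6 CPM in Sham. None of the 18 was at 0 in either group. In bulk tumors fewer cells of a type and less RNA per cell cannot be told apart.

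Radiation was also given on top of the TGF beta inhibitor, in tumors that share no sample with RT or Sham and whose library names all carry the code A2301. The labels mark the libraries of TGFbi+RT 3 and TGFbi 3 as resubmitted. TGFbi+RT against TGFbi asked the same of inhibited tumors. There too 0 of 16017 genes passed (0%), with 970 (6.06%) at an unadjusted edgeR p under 0.05. limma-voom called 0, and DESeq2 called 3, Fbln7, Gabpa and Irs1. The hypoxia and glycolysis list had a median of 0.03 there, with 16 of 39 members lower, beside -0.71 in RT against Sham. Its TGFbi+RT against TGFbi median was 0.07 without TGFbi+RT 3 and triple-treated 2, and 0.13 without the resubmitted libraries. Slc2a1 measured 128, 228 and 134 CPM in the TGFbi+RT tumors, against 151, 187 and 174 CPM in the TGFbi tumors. Vegfa measured 255, 510.2 and 281 CPM in the TGFbi+RT tumors, against 164, 341 and 243 CPM in the TGFbi tumors, and Ndrg1 measured 125, 363 and 248 CPM in the TGFbi+RT tumors, against 141, 217 and 187 CPM in the TGFbi tumors. Groups overlapped for all 3.

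The difference between both radiation comparisons was tested gene by gene in the same fit. It was above 0 for 38 of the 39 hypoxia and glycolysis genes, and 7 had an unadjusted p under 0.05, beside 3.8% of all genes. The list was chosen with its lower values in RT against Sham known, and these values enter the difference. That choice favored differences above 0, so these counts are not independent support. After adjustment 0 genes passed with edgeR and with limma-voom, among 608 at an unadjusted p under 0.05, and DESeq2 called 3 genes outside the list, among them Tox. For Vegfa the difference was 2.37 ± 0.91, for Ndrg1 2.51 ± 0.92, for Slc2a1 1.29 ± 0.50 and for Car9 2.86 ± 0.74 on the log2 scale. Both comparisons also differ in library code, since RT carries A2304 and the other 3 groups carry A2301, so the inhibitor and the code cannot be told apart here.

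**Figure D3:**
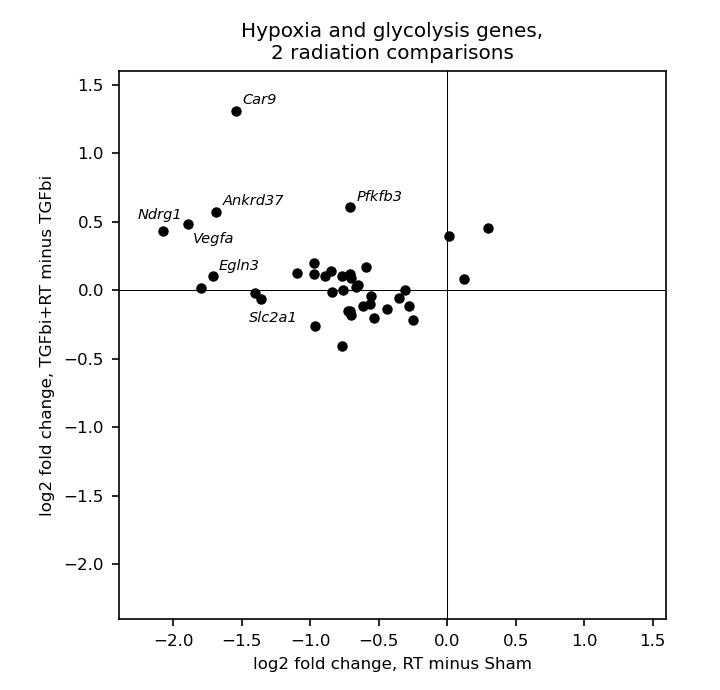
Each point is 1 of the 39 tested hypoxia and glycolysis genes, with its log2 fold change for RT minus Sham on the horizontal axis and for TGFbi+RT minus TGFbi on the vertical axis. Medians are -0.71 on the horizontal axis and 0.03 on the vertical axis. Ndrg1, Vegfa, Ankrd37 and Car9 lie to the left of 0 and above it.

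A list score, the mean of log2(CPM + 0.5) over members after centring each gene over the 15 tumors, was -0.31, -0.50 and -0.32 for hypoxia and glycolysis in RT 1 to 3 and 0.69, 0.18 and 0.34 in Sham 1 to 3. It was 0.03, 0.40 and 0.10 in TGFbi+RT and -0.08, 0.22 and 0.15 in TGFbi. All 3 RT tumors were below every tumor of the other 3 groups named. In the group with both codes, TGFbi+RT+anti-PD-L1, it was -0.55 in replicate 1 (A2301), -0.94 in replicate 2 (A2304) and 0.59 in replicate 3 (A2304). Slc2a1 measured 81.5, 56.7 and 169 CPM in those 3 tumors.

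**Figure D4:**
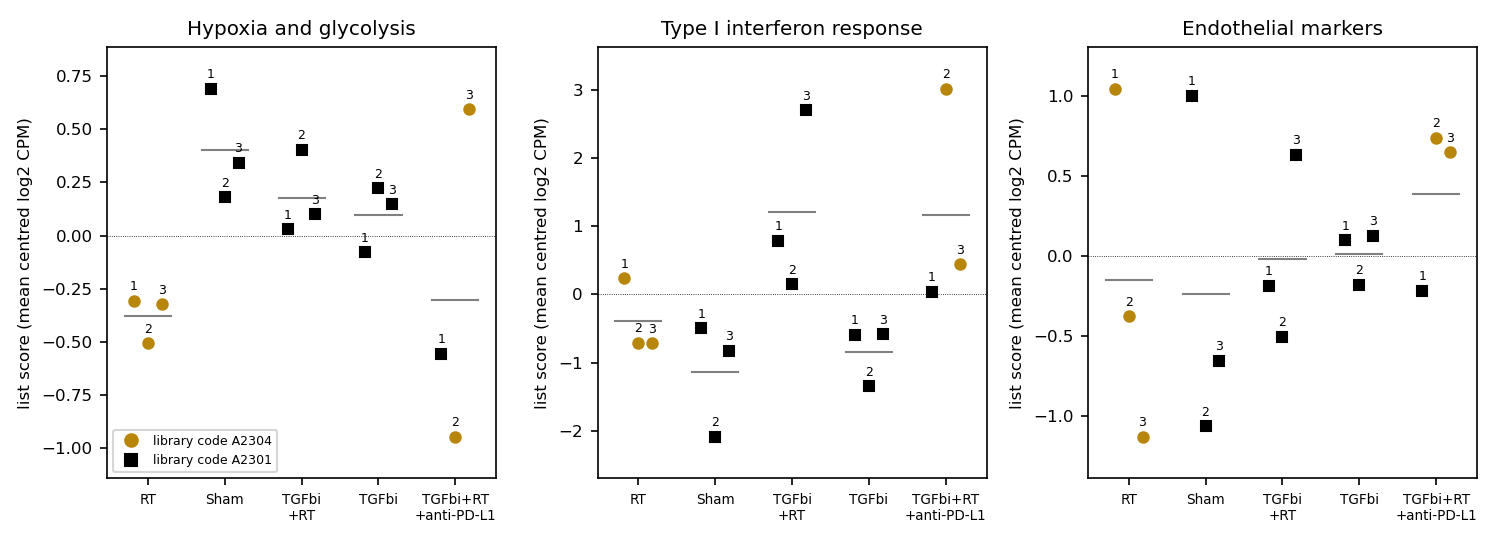
List scores per tumor in the 5 groups for 3 gene lists, with tumor numbers, library code by color and shape, and group means as lines. Hypoxia and glycolysis scores are -0.50 to -0.31 in RT and 0.18 to 0.69 in Sham. Endothelial scores are highest in replicate 1 of both RT and Sham, and interferon scores are highest in TGFbi+RT 3 and triple-treated 2.

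Lists of p53 targets and of DNA repair genes had medians near 0. Of 28 p53 target genes, 2 were higher and 1 was lower in RT without overlap (7.14% and 3.57%, beside 5.77% and 6.28%), and the median was -0.06. Cdkn1a, the p53-induced inhibitor of cell division p21, measured 34.9, 14.9 and 15.0 CPM in the RT tumors, against 39.1, 12.1 and 17.4 CPM in the Sham tumors (-0.08 ± 0.66), and its sign changed without RT 2 (0.13), RT 3 (0.12) or Sham 1 (0.55). Bbc3, the death gene PUMA, measured 3.74, 3.05 and 3.65 CPM in the RT tumors, against 2.80, 2.05 and 2.07 CPM in the Sham tumors (0.59 ± 0.38). Perp, a desmosome protein and p53 target, measured 210.4, 244 and 202 CPM in the RT tumors, against 351, 342 and 292 CPM in the Sham tumors (-0.58 ± 0.34). Of 32 genes of double-strand break repair, 1 was higher (3.1%, beside 5.77%) and 3 were lower (9.4%, beside 6.28%) without overlap, with a median of 0.02. Lig4, the ligase of end joining, measured 9.98, 10.9 and 12.2 CPM in the RT tumors, against 8.41, 9.58 and 7.85 CPM in the Sham tumors (0.35 ± 0.17). Nbn, a break sensor, measured 32.0, 30.9 and 28.1 CPM in the RT tumors, against 34.5, 43.0 and 36.1 CPM in the Sham tumors (-0.32 ± 0.14), and Rbbp8, which starts end resection, measured 76.3, 91.0 and 82.6 CPM in the RT tumors, against 92.3, 121 and 117 CPM in the Sham tumors (-0.40 ± 0.24).

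Proliferation genes had medians near 0. The 30 genes of G1 and S phase had a median of 0.05 and the 28 of G2 and M phase a median of 0.02, with 0 members of either list without overlap. With the library code as a term the medians were 0.62 and 0.53. Mki67, the proliferation marker Ki-67, measured 628, 779.6 and 980.4 CPM in the RT tumors, against 608, 915 and 672 CPM in the Sham tumors (0.12 ± 0.22). Among cyclins and their inhibitors, Ccnd1, cyclin D1, measured 185, 142 and 270.2 CPM in the RT tumors, against 100.1, 109.9 and 139 CPM in the Sham tumors (0.78 ± 0.33), and the inhibitor Cdkn1b measured 62.1, 63.0 and 60.1 CPM in the RT tumors, against 102, 68.1 and 65.0 CPM in the Sham tumors (-0.34 ± 0.19). Of 24 tested cell death genes 4 were higher without overlap (16.7%, beside 5.77%) and 0 were lower, with a median of 0.14 that became 0.03 without Sham 2 and -0.16 with the library code as a term. Bcl2, which protects from apoptosis, measured 48.5, 40.2 and 51.6 CPM in the RT tumors, against 35.6, 31.0 and 37.5 CPM in the Sham tumors (0.43 ± 0.20). Slc7a11, the cystine importer that guards against ferroptosis, measured 5.49, 5.97 and 4.99 CPM in the RT tumors, against 3.22, 14.3 and 16.8 CPM in the Sham tumors (-1.06 ± 0.44), with Sham 1 below all RT tumors.

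Interferon-induced genes were higher in RT by their median, with wide overlap. Of 34 type I interferon response genes 33 had a fitted value above 0, the median was 0.73, and 4 were higher without overlap (11.8%, beside 5.77%). None had an unadjusted p under 0.05. Scores were 0.23, -0.71 and -0.72 in RT and -0.50, -2.09 and -0.83 in Sham, so RT 1 was the highest, Sham 2 the lowest, and the other 4 were close together. The median was 0.26 without RT 1, 1.12 without Sham 1 and -1.63 with the library code as a term. Oas3, a sensor of viral RNA, measured 6.61, 1.63 and 1.48 CPM in the RT tumors, against 1.43, 0.164 and 0.908 CPM in the Sham tumors (1.91 ± 1.18). Oas2 measured 9.85, 3.19 and 2.04 CPM in the RT tumors, against 2.86, 0.491 and 0.908 CPM in the Sham tumors and Trim30a measured 20.8, 5.70 and 3.65 CPM in the RT tumors, against 5.25, 1.15 and 2.14 CPM in the Sham tumors, both with overlap. In TGFbi+RT against TGFbi the median was 2.72, or 1.35 without TGFbi+RT 3 and triple-treated 2, and 1.59 without the resubmitted libraries. Scores there were 0.79, 0.15 and 2.70 in TGFbi+RT and -0.59, -1.35 and -0.59 in TGFbi. In the triple-treated tumors scores were 0.04 (A2301), 3.01 (A2304) and 0.44 (A2304). The library code term is estimated only from these 3 tumors, so the median with that term depends on the high replicate 2.

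Antigen presentation genes of class II had higher fitted values in RT. All 9 tested MHC class II genes were above 0, with a median of 1.54 and 3 higher without overlap (33.3%, beside 5.77%). H2-Aa, a class II chain, measured 13.2, 7.40 and 3.58 CPM in the RT tumors, against 3.10, 0.901 and 1.30 CPM in the Sham tumors (2.16 ± 1.24), and the class II chaperone Cd74 measured 52.7, 35.1 and 10.9 CPM in the RT tumors, against 18.7, 4.42 and 5.51 CPM in the Sham tumors (1.77 ± 1.16). RT 1 was the highest RT tumor and Sham 1 the highest Sham tumor for both. The class II median was 0.69 without RT 1, 2.45 without Sham 1 and -0.95 with the library code as a term. That term came from the triple-treated tumors, whose class II scores were 0.38 to 4.11 with a middle value of 0.87. The 16 class I genes had a median of 0.05, with 4 higher (25%, beside 5.77%) and 1 lower (6.25%, beside 6.28%) without overlap, and the median was -1.20 with the library code as a term. H2-K1, a class I heavy chain, measured 59.5, 47.8 and 35.3 CPM in the RT tumors, against 71.3, 54.9 and 62.2 CPM in the Sham tumors (-0.40 ± 0.56), and Calr, a chaperone of class I loading, measured 365, 334 and 357 CPM in the RT tumors, against 274, 297 and 294 CPM in the Sham tumors (0.29 ± 0.14). Cd274, which encodes PD-L1, measured 6.05, 2.44 and 2.39 CPM in the RT tumors, against 7.52, 2.62 and 3.96 CPM in the Sham tumors (-0.38 ± 1.22).

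Immune cell medians depended on RT 1 and Sham 1. T cell markers summed to 41.4 to 103 CPM in RT and 31.0 to 49.6 CPM in Sham over 24 genes. The T cell receptor component Cd3e had 28 counts in all RT tumors, nearly all in RT 1 (1.68 CPM), and 1 count in all Sham tumors. Gzmb, a cytotoxic protease, had 11 counts in all RT tumors, all in RT 1, and 0 in Sham. The T cell median was 1.20, or 1.08 with 5 genes that were at 0 in Sham set to the bound of 3 counts. It was 0.17 without RT 1, 1.58 without Sham 1 and 0.61 without both. Macrophage markers summed to 461 to 2837 CPM in RT and 335 to 1450.4 CPM in Sham, and their median was 0.74. It was -0.21 without RT 1, 1.42 without Sham 1, 0.40 without both and -1.57 with the library code as a term. Csf1r, the macrophage growth factor receptor, measured 170.1, 53.9 and 29.9 CPM in the RT tumors, against 65.0, 16.5 and 25.9 CPM in the Sham tumors (1.24 ± 0.79), and the mannose receptor Mrc1 measured 258, 44.9 and 19.3 CPM in the RT tumors, against 78.4, 23.7 and 35.1 CPM in the Sham tumors (1.23 ± 0.86). The 14 dendritic cell markers had a median of 0.86, with 4 higher without overlap (28.6%, beside 5.77%). That median was 0.15 without RT 1, 1.28 without Sham 1 and 0.49 without both. Siglech, of plasmacytoid dendritic cells, measured 0.998, 0.407 and 0.632 CPM in the RT tumors, against 0.0597, 0.0819 and 0.195 CPM in the Sham tumors (2.50 ± 1.14).

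Of 15 tested monocyte and neutrophil markers, 2 were higher without overlap (13.3%, beside 5.77% of all genes) and 0 were lower. Fitted values were above 0 for 11 and below 0 for 4, and their median of 1.19 was -0.01 without RT 1. Of 5 tested B and plasma cell markers, 1 was higher without overlap (20%, beside 5.77%), and their median of 0.66 was -0.40 without RT 1. Of 3 members named for a small unadjusted p, Hp and Ighm did not overlap between the groups and Ccr2 did. Hp, the haemoglobin-binding protein haptoglobin, which neutrophils also carry, measured 51.5, 42.8 and 32.0 CPM in the RT tumors, against 10.9, 1.31 and 7.00 CPM in the Sham tumors (2.70 ± 0.97), and every RT value was above every Sham value. Ighm, the immunoglobulin M heavy chain, measured 12.0, 3.53 and 1.90 CPM in the RT tumors, against 1.31, 0.409 and 0.454 CPM in the Sham tumors (2.96 ± 1.07). Ccr2, a chemokine receptor of monocytes, measured 35.0, 6.65 and 5.06 CPM in the RT tumors, against 5.31, 1.31 and 1.23 CPM in the Sham tumors (2.55 ± 0.97), with RT 3 below Sham 1. The part of immune cell content in the interferon and class II values was not tested.

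Stromal genes varied between replicates more than between groups. The 24 fibroblast and matrix genes had a median of 0.17, with scores of 1.33, -0.93 and -1.24 in RT and 1.36, -1.68 and -1.37 in Sham. Replicate 1 was high in both groups and the other 4 tumors were low. The median was -1.13 without RT 1, 1.87 without Sham 1, 0.61 without both, and -1.77 with the library code as a term. Acta2, smooth muscle actin, measured 369, 249 and 266 CPM in the RT tumors, against 604, 437 and 221 CPM in the Sham tumors (-0.51 ± 0.42). Tgfb1 measured 80.3, 36.3 and 38.8 CPM in the RT tumors, against 66.8, 27.0 and 30.6 CPM in the Sham tumors (0.32 ± 0.46), and it was -0.15 without RT 1. Of 25 TGF beta pathway targets 2 were lower without overlap (8%, beside 6.28% of all genes), Bhlhe40 and Snai2, with a median of -0.05. Tgfbi, a matrix protein strongly induced by TGF beta, measured 51.6, 15.3 and 8.29 CPM in the RT tumors, against 17.2, 5.57 and 6.03 CPM in the Sham tumors (1.38 ± 0.68), while Snai2, a transcription factor of mesenchymal state and of basal cells, measured 154, 165 and 151 CPM in the RT tumors, against 211, 255 and 206 CPM in the Sham tumors (-0.52 ± 0.23).

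Basal epithelial markers had a median below 0 and luminal markers a median above 0. All tumors expressed the epithelial marker Epcam, at 140.1, 191 and 203 CPM in the RT tumors, against 166, 143 and 168 CPM in the Sham tumors (0.16 ± 0.21). Of 22 basal markers, 4 were lower in RT without overlap (18.2%, beside 6.28%) and 0 were higher, with a median of -0.30 that was -0.02 without Sham 1 and 0.06 with the library code as a term. Krt5, the main basal keratin, measured 377, 418 and 351 CPM in the RT tumors, against 603, 721 and 658 CPM in the Sham tumors, a clear gap with a log2 fold change of -0.79 ± 0.26. In TGFbi+RT against TGFbi the Krt5 difference was -0.74, from 529, 748 and 347 CPM in the TGFbi+RT tumors, against 1117, 978 and 612 CPM in the TGFbi tumors. Egfr, the epidermal growth factor receptor, measured 56.3, 27.3 and 41.8 CPM in the RT tumors, against 95.6, 77.4 and 51.1 CPM in the Sham tumors (-0.84 ± 0.37). Of 23 tested luminal markers, 4 were higher without overlap (17.4%, beside 5.77%) and 0 were lower, with a median of 0.33 that was 0.09 without Sham 2 and 0.98 without Sham 1. Elf5, a transcription factor of luminal progenitors, measured 37.9, 51.0 and 47.7 CPM in the RT tumors, against 27.8, 9.09 and 22.8 CPM in the Sham tumors (1.19 ± 0.53), and Prlr, the prolactin receptor, measured 6.61, 5.50 and 10.8 CPM in the RT tumors, against 2.39, 1.06 and 0.973 CPM in the Sham tumors (2.35 ± 1.42). Basal scores overlapped, at 0.12, -0.21 and 0.02 in RT and 0.45, -0.08 and 0.02 in Sham. Luminal scores overlapped as well, at 0.12 to 0.27 in RT and -1.38 to 0.36 in Sham.

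Set side by side, the 46 lists had medians between -0.71 and 2.37. Hypoxia and glycolysis had the lowest median and the largest share of members apart in one direction. That list was chosen with the lower hypoxia genes known. The highest median belonged to cytotoxic cell markers, of which 8 of 15 were tested. That median was 1.72 with 3 genes at 0 in Sham set to the bound of 3 counts, and 0 without RT 1. MHC class II (1.54), mast cell, eosinophil and basophil (1.497, or 0.81 with genes at 0 in 1 group set to that bound), adipocyte (1.46), T cell (1.20) and monocyte and neutrophil markers (1.19) came next. Without RT 1 these medians were 0.69, -0.38, -0.30, 0.17 and -0.01 in the same order. Without replicate 1 of both groups they were 1.89, 0.06, -0.06, 0.61 and 0.25. With the library code as a term, 21 of the 46 medians had the other sign.

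**Figure D5:**
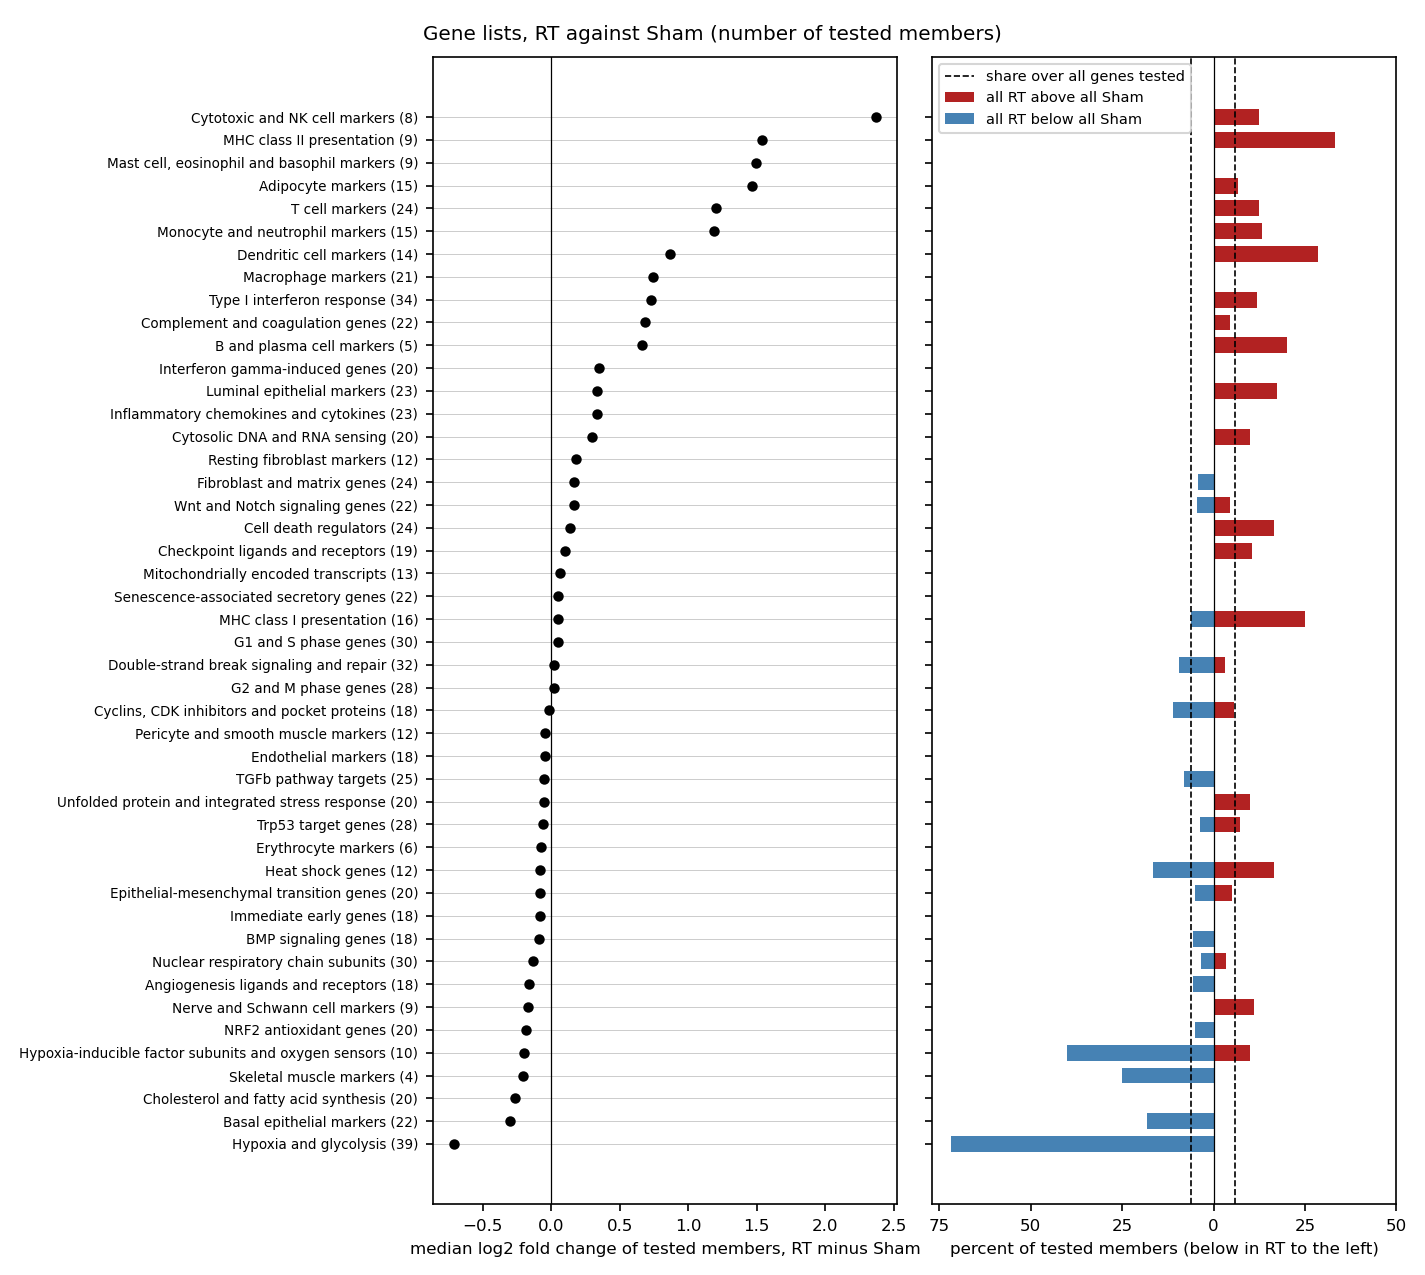
Left, median log2 fold change (RT minus Sham) of the tested members of each of 46 gene lists, with the number tested in parentheses. Right, percent of tested members whose 3 RT values all lie above (red, to the right) or all below (blue, to the left) the 3 Sham values. Dashed lines mark 5.77% and 6.28%, the shares over all genes tested.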

How the data were processed

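The authors deposited counts of read fragments per Entrez gene for 16 libraries, with no normalization per the file headers, and an annotation table with other values, the exon coordinates and lengths of each gene. Per the labels, ribosomal RNA was depleted and libraries were made with a NEBNext Ultra II kit. The build was GRCm38 per the submitters' processing notes, and column names mention Subread. Settings, strand and annotation release are not given in the sources used here. Symbols matched 25275 of 27179 genes, and the share of counts without a symbol was 7.86% to 13.8% per tumor.

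Genes were filtered with filterByExpr on the 5 groups, scaled by TMM and fitted in edgeR 4.0.16 (R 4.3.3) with 1 mean per group over 15 tumors, which left 10 residual degrees of freedom and a common biological coefficient of variation of 0.364. P-values were adjusted by Benjamini-Hochberg over all 16017 genes, with a threshold of 0.05. DESeq2 1.42.0 and limma 3.58.1 were alternatives, and the fit was tested on simulated data. Within RT and Sham, pairs of tumors had Spearman correlations of 0.945 to 0.988 and differed by far more than counting error.

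Same-numbered RT and Sham tumors deviated together from their group means, with correlations of 0.701, 0.393 and 0.302 for numbers 1, 2 and 3, so a fit with the number as a block was run beside the fit above, which has none. The labels give only the shared number, and differently numbered tumors 2 and 3 also correlated, at 0.272 and 0.441.

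Named genes were the 12 per direction with the smallest unadjusted p among genes with a symbol, a mean log2 CPM of at least 1 and no overlap between groups, up to 3 members per list with the smallest p, 12 fixed genes, and genes called by an alternative, of which some are not reported here. Further members of the hypoxia, oxygen sensor, vessel, macrophage, T cell and cytotoxic lists were named after their values were seen. The comparison, the 46 lists and their members were chosen with earlier results of these data known, including the lower hypoxia genes. Standard errors come from the edgeR fit and include the spread between tumors. The bound of 3 counts covers counting error only. The internal reference library was left out.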

Additional observations from a re-analysis of the deposited data

How the results depend on the processing

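The count of 0 genes past adjusted p 0.05 in RT against Sham held under every setting run except DESeq2, which called 1. The smallest adjusted p of the edgeR test was 0.999 as reported and 0.292 with only RT and Sham in the fit. It was 0.202 without TGFbi+RT 3 and triple-treated 2, and 0.082 without the resubmitted libraries. In the other edgeR settings it was 0.382 or higher. In TGFbi+RT against TGFbi, and in the difference of both radiation comparisons, DESeq2 called 3 each and the other settings run called 0. Leaving out each RT or Sham tumor in turn gave 404 to 1072 genes at an unadjusted p under 0.05, and 2894 to 5216 genes without overlap, where fewer tumors need to be apart. Without replicate 1 of both groups, a setting chosen after seeing the data, 6976 genes did not overlap. With the replicate block 0 genes passed, 603 had an unadjusted p under 0.05 and the hypoxia and glycolysis median was -0.73. The replicate block changed no other call. The library code term, estimated only from the 3 triple-treated tumors, moved 35 of the 46 list medians by more than the spread between replicates and reversed 13 genes, namely Tgfb1 (-0.73), Cd74 (-0.95), Epas1 (-1.02), Kdr (-0.019), Cdc20 (0.048), Trim30a (-0.41), Oas2 (-0.93), Oas3 (-1.54), H2-Aa (-0.48), Calr (-0.036), Csf1r (-0.68), Mrc1 (-0.70) and Gzmb (-0.52). Leaving out 1 tumor at a time moved Cdkn1a between -0.62 and 0.55, Hif1a between -0.24 and 0.25, Mki67 between -0.057 and 0.31, Cd274 between -0.97 and 0.14, Tgfb1 between -0.15 and 0.84, Epas1 between -0.46 and 1.08 and Mrc1 between -0.51 and 1.86. Without replicate 1 of both groups Cdkn1a was 0.0098 and Hif1a 0.11. The cause of these changes was not tested. The other 87 genes followed by setting did not change sign. With 3 tumors per group and 0 calls, separation of the groups is a description of these tumors. Low genes such as Cd3e, Gzmb and Ffar4 rest on few counts.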

Other observations

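Lists of stress and signaling genes gave further values, none past the threshold. Of 12 heat shock genes 2 were higher (16.7%, beside 5.77% of all genes) and 2 were lower (16.7%, beside 6.28%) in RT without overlap. Their median log2 fold change was -0.08. Hspa1a, an inducible heat shock protein, measured 2.62, 2.17 and 2.25 CPM in the RT tumors, against 17.6, 4.67 and 2.98 CPM in the Sham tumors, and its near-identical copy Hspa1b measured 36.3, 37.8 and 29.1 CPM in the RT tumors, against 189.5, 57.9 and 32.2 CPM in the Sham tumors, with Sham 1 the highest tumor for both and reads that may be shared between them. Hspa5, the chaperone BiP of the endoplasmic reticulum, measured 462, 485 and 649 CPM in the RT tumors, against 313, 418 and 458 CPM in the Sham tumors (0.42 ± 0.19) without overlap, in a list of 20 unfolded protein response genes with a median of -0.05. Of 22 Wnt and Notch genes 1 was higher (4.55%, beside 5.77%) and 1 was lower (4.55%, beside 6.28%) without overlap, with a median of 0.16. Lef1, a transcription factor of Wnt signaling, measured 2.06, 0.543 and 20.5 CPM in the RT tumors, against 0.477, 0 and 0.324 CPM in the Sham tumors, so that RT 3 held most of its counts. Axin2, a Wnt target, measured 16.7, 21.1 and 34.0 CPM in the RT tumors, against 17.7, 9.99 and 14.0 CPM in the Sham tumors and was highest in the same tumor. Smad9, a mediator of BMP signaling, measured 10.5, 10.5 and 9.63 CPM in the RT tumors, against 18.1, 25.1 and 17.8 CPM in the Sham tumors (-0.99 ± 0.45) without overlap.

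The 30 nuclear genes of the respiratory chain had 26 fitted values below 0 in RT with a median of -0.14, or -0.02 without Sham 2 and 0.17 with the library code as a term, and 1 was lower (3.33%, beside 6.28%) and 1 higher (3.33%, beside 5.77%) without overlap. The 13 tested mitochondrially encoded transcripts had a median of 0.06 and 0 without overlap. Cholesterol and fatty acid synthesis genes had a median of -0.26 over 20 genes, or -0.63 without RT 3 and 0.02 without Sham 2. Adipocyte markers had a median of 1.46 over 15 tested genes, or -0.30 without RT 1. Adipoq, a hormone of fat cells, had 51 counts in RT 1 and 0 in the other 5 tumors. Skeletal muscle markers were nearly absent, with 4 of 12 tested and summed levels of 6.89 to 8.21 CPM in RT and 7.78 to 18.4 CPM in Sham, and Mb, named above, was one of the 4.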
